A study of Mus musculus with 24 samples.

Results

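The response of invariant natural killer T (iNKT) cells to oral alpha-galactosylceramide (aGC) was read in female mice whose dams had received a fecal transplant (FT) from CD1d-knockout donors, called KO FT below. It rests on 6 of the 24 RNA-seq libraries of the series, 3 from females given aGC and 3 from females given PBS alone, picked by the donor, sex and treatment in their labels. iNKT cells were sorted from mesenteric lymph nodes 24 h after gavage of 2 µg aGC in 200 µL PBS, or of 200 µL PBS. All mice were C57BL/6J offspring, and KO names the genotype of the feces donor, not a deletion in the mice that gave the cells. KO FT males given aGC or PBS and females of wild-type donors (WT FT) given aGC or PBS, 3 libraries each, serve for comparison. The sources used here do not give the age of the mice, the sort gate or how many mice stand behind a library. Effects of the donor and of dam, litter or cage cannot be told apart. No label says whether a group's 3 libraries are from separate animals, so p-values cover only the spread between libraries, and this spread may be technical.

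iNKT cells are T cells with a semi-invariant receptor, in mice built from the Trav11 and Traj18 segments, that binds lipids held by CD1d. aGC is a strong lipid agonist of this receptor, and stimulated iNKT cells release cytokines such as interferon gamma and interleukin 4 within hours. Type I interferons signal through a factor complex that holds STAT2 and IRF9 to genes whose promoters hold an interferon-stimulated response element (ISRE). Interferon gamma acts at gamma-activated sites (GAS) and on genes such as those of the guanylate-binding proteins. In this group of females most transcription factor genes induced by antigen receptor signals were higher with aGC, while the interferon-stimulated genes were high with PBS and lower with aGC.

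The deposited estimated counts summed to 9764931 to 16054334 per aGC library and to 14925268 to 22757422 per PBS library, and mitochondrial genes held 0.220 to 0.301% and 0.240 to 0.266% of them. Levels are counts scaled to the library total (CPM) with TMM scaling, and a count of 0 allows a level of up to 3 counts, here 0.188 to 0.302 CPM in aGC and 0.132 to 0.199 CPM in PBS libraries (counting error only). Libraries of a group were correlated at r = 0.977 to 0.985 in log2 CPM across genes, which are not independent replicates. Changes are log2 ratios of aGC over PBS ± SE from edgeR's quasi-likelihood test, adjusted by Benjamini-Hochberg over 15953 genes, and a gene passed with an adjusted p under 0.05. Of these genes 56% passed, 27.7% higher (4419) and 28.3% lower (4522) with aGC, with a median log2 change of -0.01 over all tested genes. A share of list members near these values is background.

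Trav11 and Zbtb16, which mark iNKT cells, were detected in every library. The aGC libraries of these females nonetheless had a lower share of Trav11 and higher CD8 and naive T cell markers than their PBS libraries, and KO FT males showed the reverse. Those values are given with the marker genes below. Whether the sorted populations differed between groups, and the part of these markers in the other results and in each difference between females and males, was not tested. The sex labels matched Xist, at 8.76 to 48.3 CPM in the 12 female libraries of the series and 0 to 0.646 CPM in the 12 male ones, and the Y-linked Ddx3y, at 0 to 0.471 CPM in females and 41.2 to 78.6 CPM in males. The treatment labels matched Irf4, a gene that antigen receptor signals induce, at 60.8 to 101 CPM in the 12 aGC libraries and 6.17 to 16.4 CPM in the 12 PBS libraries.

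The promoters of 5 interferon genes on which the results below turn are shown first, since most of these genes fell with aGC while Gbp5, of the guanylate-binding protein family, rose. Each run covers 250 bases before and 50 after the start site in RefSeq (GRCm38.p6), 5′ to 3′ on the gene's strand. Capitals mark the ISRE core GAAANNGAAA or, on the other strand, its reverse complement. The windows are chr19:34583279-34583578 (plus strand) for Ifit3, chr19:34640639-34640938 (plus) for Ifit1, chr12:26456403-26456702 (minus) for Rsad2, chr4:156200769-156201068 (minus) for Isg15 and chr3:142496684-142496983 (plus) for Gbp5.
Ifit3: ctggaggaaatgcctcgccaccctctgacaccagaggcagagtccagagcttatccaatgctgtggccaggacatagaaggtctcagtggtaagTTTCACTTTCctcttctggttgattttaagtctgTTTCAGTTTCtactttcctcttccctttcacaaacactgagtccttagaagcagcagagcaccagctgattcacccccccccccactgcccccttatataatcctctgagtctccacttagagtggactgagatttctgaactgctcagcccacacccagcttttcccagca
Ifit1: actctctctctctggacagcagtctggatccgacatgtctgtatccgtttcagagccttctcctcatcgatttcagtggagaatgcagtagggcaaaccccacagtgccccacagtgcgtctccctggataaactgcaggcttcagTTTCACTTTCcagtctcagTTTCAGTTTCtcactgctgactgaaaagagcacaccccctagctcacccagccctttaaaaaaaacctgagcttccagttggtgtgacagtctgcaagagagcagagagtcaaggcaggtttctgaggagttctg
Rsad2: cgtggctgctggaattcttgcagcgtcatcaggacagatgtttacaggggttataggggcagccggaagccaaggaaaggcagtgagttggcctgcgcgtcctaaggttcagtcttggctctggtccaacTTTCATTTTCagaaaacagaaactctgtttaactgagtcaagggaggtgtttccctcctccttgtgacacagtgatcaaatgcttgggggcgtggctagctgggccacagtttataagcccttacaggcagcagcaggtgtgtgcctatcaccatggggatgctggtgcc
Isg15: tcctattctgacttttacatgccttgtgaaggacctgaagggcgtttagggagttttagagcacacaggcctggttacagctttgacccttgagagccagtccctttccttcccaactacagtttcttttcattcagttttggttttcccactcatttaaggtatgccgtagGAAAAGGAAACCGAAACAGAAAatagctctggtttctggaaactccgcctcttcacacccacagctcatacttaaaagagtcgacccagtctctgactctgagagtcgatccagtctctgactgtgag
Gbp5: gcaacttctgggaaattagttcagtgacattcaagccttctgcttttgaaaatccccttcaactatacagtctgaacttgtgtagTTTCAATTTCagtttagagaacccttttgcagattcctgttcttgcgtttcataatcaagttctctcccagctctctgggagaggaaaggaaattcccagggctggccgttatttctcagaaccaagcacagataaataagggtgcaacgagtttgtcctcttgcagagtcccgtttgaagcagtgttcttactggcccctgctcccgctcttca

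Ifit3 and Ifit1 each held 2 separate cores upstream of the start site, Isg15 held 3 that overlap, and Rsad2 and Gbp5 held 1. Among all 27025 genes with a RefSeq window, searched on both strands, 3.99% held the core. Of the 60 interferon-stimulated genes listed, 46 had a window and 22 of them (47.8%) held it, and so did 9 of 10 interferon-inducible GTPase genes (90.0%) and 1 of 22 effector cytokine genes (4.55%). Among interferon-stimulated genes the median log2 change was -0.85 for the 22 with a core and -0.88 for the 24 without. The GAS letters TTCNNNGAA stood in 9.55% of all genes, in 6 of the 46 (13%) and in 6 of the 10 GTPase genes (60%). A match in these windows is a description and was not tested as a binding site.

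Of the 60 interferon-stimulated genes, all of which passed the filter on low counts, 53 were lower with aGC, 0 higher and 7 did not pass, and their median log2 change was -0.96. The 53 changes ran from -4.03 to -0.31, 29 of them at least 2-fold and 11 at least 4-fold, against 10.1% and 3.74% of all tested genes. In 52 of the 60 every aGC library lay below every PBS library, against 31.4% of all tested genes. In bulk samples fewer cells of a type and less RNA per cell cannot be told apart.

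Ifit3 (ENSMUSG00000074896.3, chromosome 19, 34583531 to 34588731, GRCm38), which encodes an antiviral protein with tetratricopeptide repeats, stood at 29.6, 29.9 and 36.3 CPM in aGC libraries and at 391, 375 and 394 CPM in PBS libraries. All aGC libraries lay far below the PBS libraries, with a log2 change of -3.59 ± 0.08 (adjusted p = 4.45e-20, edgeR). The nearby Ifit1 (ENSMUSG00000034459.8, chromosome 19, 34640871 to 34650009), whose protein binds foreign RNA caps, stood at 43.7, 43.1 and 48.1 CPM with aGC and at 372, 350.0 and 331 CPM with PBS. The groups did not overlap, and the log2 change was -2.96 ± 0.07. The near-identical copy Ifit3b averaged 5.95 CPM with aGC and 95.2 CPM with PBS, a log2 change of -4.03 ± 0.19, and counts may be split between it and Ifit3.

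Rsad2 (ENSMUSG00000020641.16, chromosome 12, 26442746 to 26456452), the gene of the antiviral radical SAM enzyme viperin, stood at 2.01, 2.51 and 5.88 CPM with aGC and at 33.4, 51.5 and 32.7 CPM with PBS. Its log2 change was -3.43 ± 0.29 (adjusted p = 5.68e-10, edgeR), and the highest aGC library still lay below the lowest PBS library. Cmpk2, a nucleotide kinase gene next to it, averaged 11.6 CPM with aGC and 66.1 CPM with PBS. Mx1 (ENSMUSG00000000386.16, chromosome 16, 97447035 to 97462907), of the dynamin-like GTPase family, stood at 3.02, 3.37 and 2.56 CPM with aGC and at 21, 16.1 and 16.2 CPM with PBS, a log2 change of -2.58 ± 0.21. Mx2 averaged 1.14 CPM with aGC and 8.68 CPM with PBS, and the membrane protein gene Ifitm3, outside the list, 1.95 CPM with aGC and 14.3 CPM with PBS.

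Usp18, Isg15, Irf7 and Oasl2, also on this list, fell as well. Usp18 (ENSMUSG00000030107.10, chromosome 6, 121245906 to 121270917), whose protein removes ISG15 and dampens the type I receptor, stood at 28.9, 30.1 and 32.0 CPM with aGC and at 167, 162 and 171 CPM with PBS. No library overlapped between the groups, and the log2 change was -2.45 ± 0.06 (adjusted p = 7.64e-20, edgeR). Isg15 (ENSMUSG00000035692.7, chromosome 4, 156199424 to 156200818), the ubiquitin-like modifier gene, stood at 26.3, 27.5 and 26.0 CPM with aGC and at 74.5, 79.7 and 96.5 CPM with PBS, a log2 change of -1.65 ± 0.12. The aGC libraries were close together and the PBS libraries higher and more spread. Irf7, the factor that amplifies type I interferon, stood at 144 to 155 CPM with aGC and at 394 to 409 CPM with PBS, a log2 change of -1.42 ± 0.06. Oasl2, of the oligoadenylate synthetase family, fell by 1.30 on the log2 scale. Among the 7 members that did not pass, Slfn8, Dtx3l, Samd9l and Trim25 had log2 changes of 0.13, -0.07, -0.15 and -0.21, and without aGC library 3 Trim25 passed at -0.31 (adjusted p = 0.0469, edgeR).

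**Figure D1:**
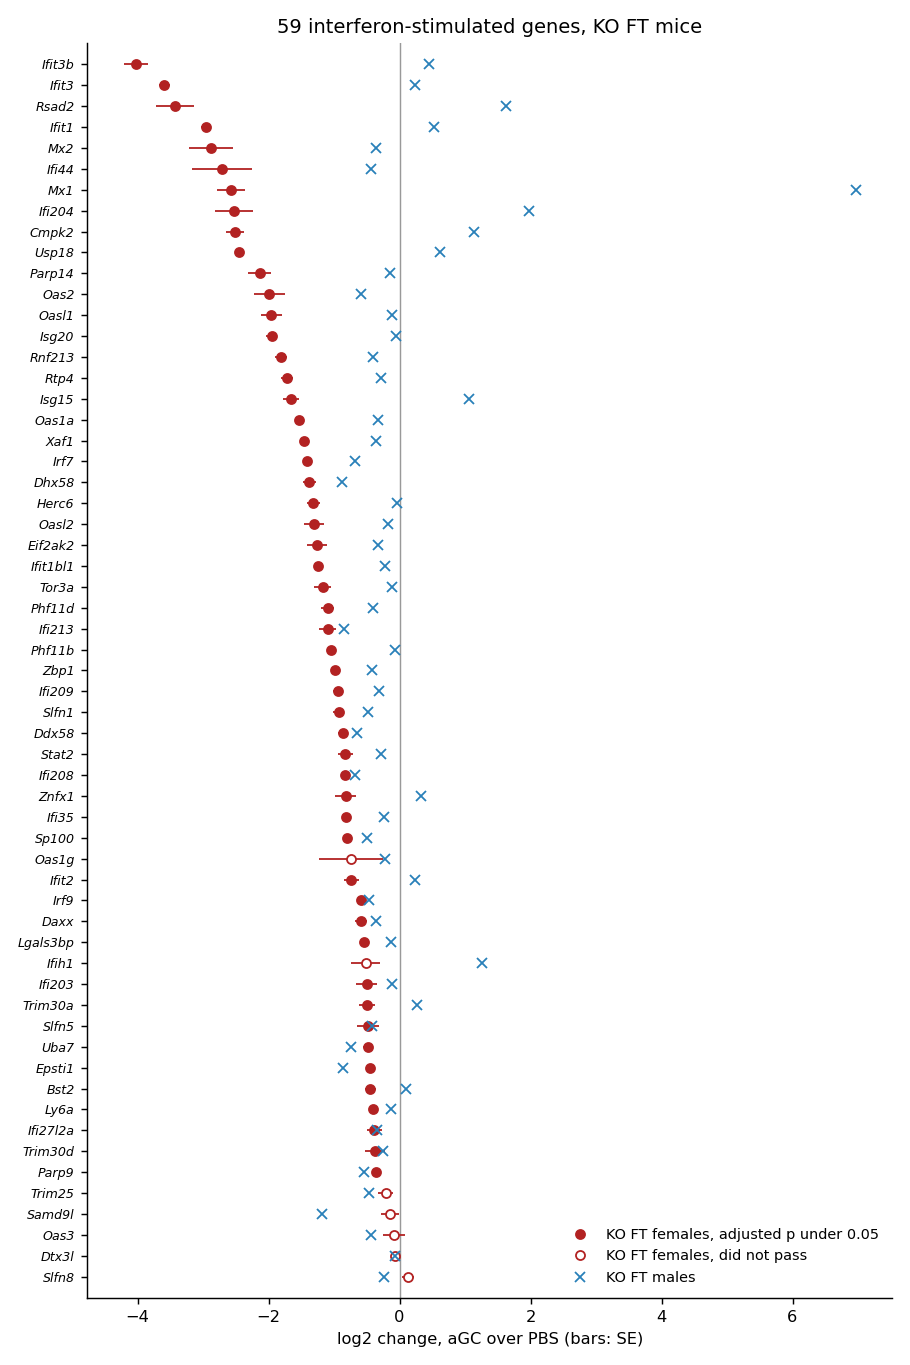
Each row is 1 of 59 of the 60 interferon-stimulated genes, with the log2 change of aGC over PBS on the x axis for KO FT females (circles with SE bars, filled where the adjusted p was under 0.05) and for KO FT males (crosses). In females 52 circles are filled and lie left of 0, from -4.03 to -0.36, while the male cross of Mx1 lies at 6.97.

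Among the 8 groups the list stood highest in the PBS-treated KO FT females. Its mean log2 CPM was 5.20 with aGC and 6.41 with PBS in KO FT females, 5.64 and 5.70 in KO FT males given aGC and PBS, 5.67 and 5.94 in WT FT females given aGC and PBS, and 4.94 and 5.53 in WT FT males given aGC and PBS. Of the 60 genes 41 had their highest mean of the 8 groups in the PBS-treated KO FT females, against 12.4% of all tested genes, and 13 had their lowest in the aGC-treated KO FT females, against 11.8%. Ifit3 averaged 31.9 CPM with aGC and 387 CPM with PBS in these females, 112 and 95.4 CPM in KO FT males given aGC and PBS, and 135 and 116 CPM in WT FT females given aGC and PBS. The difference between the PBS groups was not tested.

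The response of the list was also set against those of KO FT males and WT FT females, while the response in WT FT males was not tested. In KO FT males 10 of the 60 were higher and 31 lower with aGC (median log2 change -0.25), where 53.5% of all genes passed, 26.8% higher and 26.7% lower. In WT FT females 9 were higher and 29 lower (median -0.25), where 58.4% passed, 28.6% higher and 29.8% lower. The interaction test found 42 members with a lower response in KO FT females than in KO FT males and 4 with a higher one, where 46.7% of all genes passed, 25.3% lower and 21.4% higher. Against WT FT females it also found 42 with a lower and 4 with a higher response, where 44.2% passed, 23.8% lower and 20.5% higher. Both tests hold the same KO FT female libraries, so they are not independent. The median differences were -0.72 against the males and -0.76 against the WT FT females, with -0.04 over all tested genes in each.

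In 9 of the 60 members the females fell and the males rose. Over all 15953 tested genes 1459 passed in opposite directions in the sexes, counted either way round. Mx1 averaged 12.6 CPM in aGC males and 0.104 CPM in PBS males, where it rested on 5 counts in all, so its fitted log2 difference between the female and the male response, -9.54, leans on very few reads. Rsad2 averaged 27.9 CPM in aGC males and 9.15 CPM in PBS males, and its response was lower in females by a log2 difference of -5.05 (adjusted p = 5.6e-10, edgeR). Isg15 averaged 47.6 CPM in aGC males and 22.8 CPM in PBS males, a log2 change of 1.06, against -1.65 in females. The other 6, among them Ifit1, Ifit3, Cmpk2 and Usp18, had male log2 changes from 0.24 to 1.98.

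The interferon-inducible GTPase genes, many of them targets of interferon gamma, moved both ways. Of 17 tested (18 listed), 4 were higher, 8 lower and 5 did not pass, with a median log2 change of -0.20. Gbp5, of the guanylate-binding protein family that attacks pathogen vacuoles, stood at 30.5, 32.6 and 30.1 CPM with aGC and at 15.7, 18.3 and 16.4 CPM with PBS, a log2 change of 0.89 ± 0.11 (adjusted p = 3.18e-07, edgeR). Every aGC library lay above every PBS library, and Gbp3 and Gbp2 rose by 0.51 and 0.32. The 8 falls ran from -0.67 to -0.20 on the log2 scale, among them Tgtp2 and Gbp9 at -0.67 and -0.61. Of the 17 changes 12 lay below 0. Gbp4, Irgm1 and Tgtp1 had changes of 0.04, -0.04 and -0.04 and did not pass. Tgtp1 and Tgtp2 are near-identical copies, so their split is uncertain. Against WT FT females 14 of the 17 had a lower response and 1 a higher one, against 23.8% and 20.5% of all genes.

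Class I antigen presentation was mixed, with 5 of 17 genes higher, 8 lower and 4 that did not pass (median log2 change -0.11). Nlrc5, the class I transactivator, and the immunoproteasome genes Psmb10 and Psmb9 fell by 0.89, 0.77 and 0.57 on the log2 scale, and the class I heavy chain gene H2-D1 by 0.50. Tap1, a subunit of the peptide transporter, rose by 0.46, and B2m, the light chain, had a change of -0.03 that did not pass. Cd1d1, the lipid-presenting molecule itself, averaged 39.5 CPM with aGC and 104 CPM with PBS, a log2 change of -1.40 ± 0.08.

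Of 25 interferon receptor, ligand and sensor genes 19 were tested, and 8 were higher, 6 lower and 5 did not pass. Ifngr1, a chain of the interferon gamma receptor, stood at 155 to 181 CPM with aGC and at 399 to 454 CPM with PBS, and its log2 change of -1.39 ± 0.06 did not pass a test of difference from the male response (-1.30, edgeR, adjusted p = 0.44). Ifnar1, a chain of the type I receptor, had a change of 0.11 ± 0.07 that did not pass. The DNA sensor gene Cgas and the kinase gene Jak2 rose by 0.88 and 0.84, and both fell in WT FT females, by 0.77 and 0.53 on the log2 scale. Ifnb1 and Ifna1, chosen after their values were seen, had 0 counts in all 6 libraries, which allows a level of up to 0.0775 CPM over the aGC group and 0.0527 CPM over the PBS group. Ifna4, chosen in the same way, had 2 counts over the aGC libraries and 0 over the PBS libraries.

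Of 24 effector cytokine genes 17 were tested, and 12 were higher, 3 lower and 2 did not pass, with a median log2 change of 1.19. The summed level of the 24 was lower, at 2567 to 2825 CPM with aGC and 3482 to 3519 CPM with PBS. Ifng (ENSMUSG00000055170.4, chromosome 10, 118441046 to 118445892) stood at 99.0, 83.0 and 73.1 CPM with aGC and at 23.9, 28.3 and 24.8 CPM with PBS, a log2 change of 1.73 ± 0.09 (adjusted p = 9.28e-14, edgeR). All aGC libraries were above all PBS libraries. The rise was smaller than in KO FT males and in WT FT females, with log2 differences of -0.70 and -0.89 (adjusted p = 0.00011 and 4.4e-06, edgeR). Il4 (ENSMUSG00000000869.12, chromosome 11, 53602982 to 53618669), the type 2 cytokine gene, stood at 107.5, 85.2 and 88.1 CPM with aGC and at 53.5, 56.8 and 61.0 CPM with PBS. The groups did not overlap, the log2 change was 0.71 ± 0.09, and the rise in males was larger at 1.89 (edgeR, adjusted p of the difference = 6.8e-08).

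Tnf and Csf2, genes of inflammatory cytokines, rose by 2.22 and 1.92. Lif, an interleukin 6 family cytokine gene, stood at 12.3, 14.2 and 14.6 CPM with aGC and had 7 counts in the 3 PBS libraries together, a fitted log2 change of 6.72 ± 0.35 that leans on those few counts. Fasl, the death ligand gene, averaged 170 CPM with aGC and 306 CPM with PBS in these females and 217 and 150.0 CPM in KO FT males given aGC and PBS. Ltb, the lymphotoxin beta gene, fell by 0.78 on the log2 scale.

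Of 9 chemokine genes tested 4 were higher, 2 lower and 3 did not pass (median 0.55), while in KO FT males 8 of the 9 were higher and 0 lower. Ccl1 (ENSMUSG00000020702.13, chromosome 11, 82176657 to 82305690), a ligand of CCR8, stood at 86.5, 90.2 and 86.7 CPM with aGC and at 1.05, 1.06 and 0.880 CPM with PBS. This was a log2 change of 6.47 ± 0.17 (adjusted p = 7.71e-19, edgeR), with libraries of each group close together. Ccl4 and Xcl1 rose by 3.62 and 0.55, and Ccl5 fell by 0.71 on the log2 scale.

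Of 39 transcription factor genes that antigen receptor signals induce, 29 were higher and 6 lower, with a median log2 change of 0.82. Irf4, a factor that scales with receptor signal strength, stood at 92.7 to 99.3 CPM with aGC and at 6.17 to 7.48 CPM with PBS, a log2 change of 3.76 ± 0.10 (adjusted p = 5.93e-19, edgeR). Its rise was larger than in KO FT males (2.59) and WT FT females (3.15), with adjusted p of the differences of 2.2e-07 and 0.00077 (edgeR). Irf8 rose by 2.86, the immediate early genes Nr4a1 and Egr2 by 2.74 and 2.00, the NF-kappa-B regulator Nfkbid by 2.45 and Myc by 1.84. Id2, a repressor of E proteins, fell by 1.28 on the log2 scale, with 942 CPM with aGC and 2280 CPM with PBS.

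Of 24 activation and co-stimulatory receptor genes tested 15 were higher and 5 lower (median 0.71). Cd83 stood at 276, 267 and 272.5 CPM with aGC and at 12.1, 11.1 and 11.7 CPM with PBS, a log2 change of 4.54 ± 0.07. Tnfrsf9 (4-1BB), Tnfrsf4 (OX40), Tnfsf4 (OX40 ligand), Tnfsf8 (CD30 ligand), Cd69 and Il2ra rose by 2.28, 2.77, 5.10, 2.99, 1.89 and 1.42. Co-inhibitory genes gave 9 of 16 higher and 2 lower (median 0.65), among them Cd274, the gene of PD-L1, up by 1.62 with a larger rise than in KO FT males (0.78) and WT FT females (0.92). Of 30 receptor feedback genes 15 were higher and 6 lower (median 0.26), and Tnfaip3, the NF-kappa-B brake A20, rose by 2.47, more than in KO FT males (1.43) and WT FT females (0.73). Stat5a and Il6st, which carry cytokine signals, rose by 2.31 and 2.22, and Il6st fell by 0.89 on the log2 scale in KO FT males.

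**Figure D2:**
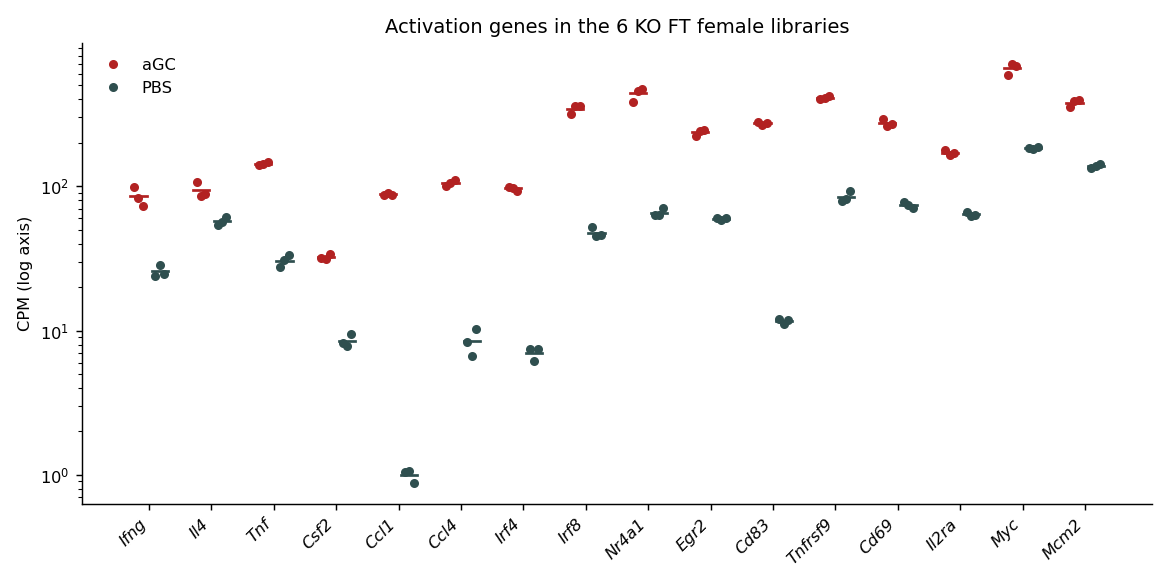
CPM on a log axis of 16 cytokine, transcription factor, receptor and replication genes in the 3 aGC libraries (left of each pair) and the 3 PBS libraries (right) of KO FT females, with bars at the means. The genes drawn were picked and all rose, and genes that fell, such as Fasl, Ltb, Id2 and Ccl5, are not shown. Every gene shown is higher in all aGC libraries, from Ccl1 with a log2 change of 6.47 to Il4 with 0.71. Of all tested genes 29.9% had every aGC library above every PBS library.

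Cd8a rose with the activation genes. It encodes a co-receptor chain of class I restricted T cells, which mouse iNKT cells usually lack. Cd8a (ENSMUSG00000053977.13, chromosome 6, 71373427 to 71379173) stood at 199.5, 181 and 187 CPM with aGC and at 5.15, 5.64 and 4.79 CPM with PBS, a log2 change of 5.19 ± 0.08 (adjusted p = 1.99e-23, edgeR). Cd8b1, its partner chain (ENSMUSG00000053044.8, chromosome 6, 71322788 to 71337494), stood at 324, 313 and 308.5 CPM with aGC and at 11.4, 11 and 11.1 CPM with PBS, a log2 change of 4.82 ± 0.05. Every aGC library lay far above every PBS library. The KO FT males ran the other way, with Cd8a at 7.59 CPM with aGC and 136 CPM with PBS, a log2 change of -4.17. WT FT females ran the same way as the KO FT females, at 245 CPM with aGC and 6.30 CPM with PBS, and the difference between the female responses was -0.12 (adjusted p = 0.43, edgeR).

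The wider marker lists moved with Cd8a. Of 13 CD8 T cell markers 10 were higher and 2 lower (median log2 change 1.59), and their summed level was 2289 to 2326 CPM with aGC and 1149 to 1175 CPM with PBS, with no marker at 0. Of 25 naive and recirculation genes 20 were higher and 4 lower (median 0.38), summing to 4372 to 4412 CPM with aGC and 3424 to 3470 CPM with PBS. Ccr7, a lymph node homing receptor gene, stood at 383, 391.5 and 409.5 CPM with aGC and at 167, 164 and 178 CPM with PBS, a log2 change of 1.22 ± 0.05. Every aGC library lay above every PBS library. Klf2 and S1pr1, which guide recirculation, rose by 1.57 and 0.65, and Dapl1, Actn1 and Itgae by 2.48, 3.06 and 1.59. In KO FT males 0 of the 25 naive genes were higher and 22 lower, and 18 rose in females and fell in males. Of all 15953 tested genes 1459 passed in opposite directions in the sexes, either way round. Eomes, a factor of cytotoxic and memory T cells, rose by 4.94 in the females and by 1.44 in the males.

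Foxp3 (ENSMUSG00000039521.13, chromosome X, 7573644 to 7595245), the factor of regulatory T cells, had 55, 91 and 130 counts in the aGC libraries and 0 in each PBS library. Set against 3 counts over the PBS group, it was at least 131.5-fold higher with aGC, and no PBS library overlapped. Lrrc32, a regulatory T cell surface gene, averaged 6.97 CPM with aGC and 0.230 CPM with PBS. Cd4 stood at 175, 219 and 220.4 CPM with aGC and at 93.0, 96.9 and 114 CPM with PBS, a log2 change of 1.01 ± 0.09. Of 13 CD4 and regulatory T cell markers tested 5 were higher and 5 lower (median 0.17), and Ikzf2, another regulatory gene, fell by 1.05 on the log2 scale. Their summed levels overlapped, at 1381 to 1483 CPM with aGC and 1455 to 1522 CPM with PBS.

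The invariant receptor itself took a smaller share. Trav11 (ENSMUSG00000096615.1, chromosome 14, 53519303 to 53519859) stood at 325, 359 and 355 CPM with aGC and at 834, 829 and 880.1 CPM with PBS, a log2 change of -1.29 ± 0.05 (adjusted p = 1.75e-15, edgeR). It held 62.1 to 65.7% of all Trav segment counts in aGC libraries and 84.8 to 85.4% in PBS libraries of these females, and was the leading Trav segment in every library. The share was 82.1 to 83.5% with aGC and 67.6 to 69.3% with PBS in KO FT males, and 54.4 to 55.6% with aGC and 84.9 to 85.3% with PBS in WT FT females. Traj18, its joining segment, fell by 1.21 on the log2 scale. The Trbv1, Trbv13 and Trbv29 segments, usual partners of the invariant chain, held 69.1 to 70.6% of Trbv counts with aGC and 82.4 to 82.9% with PBS.

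**Figure D3:**
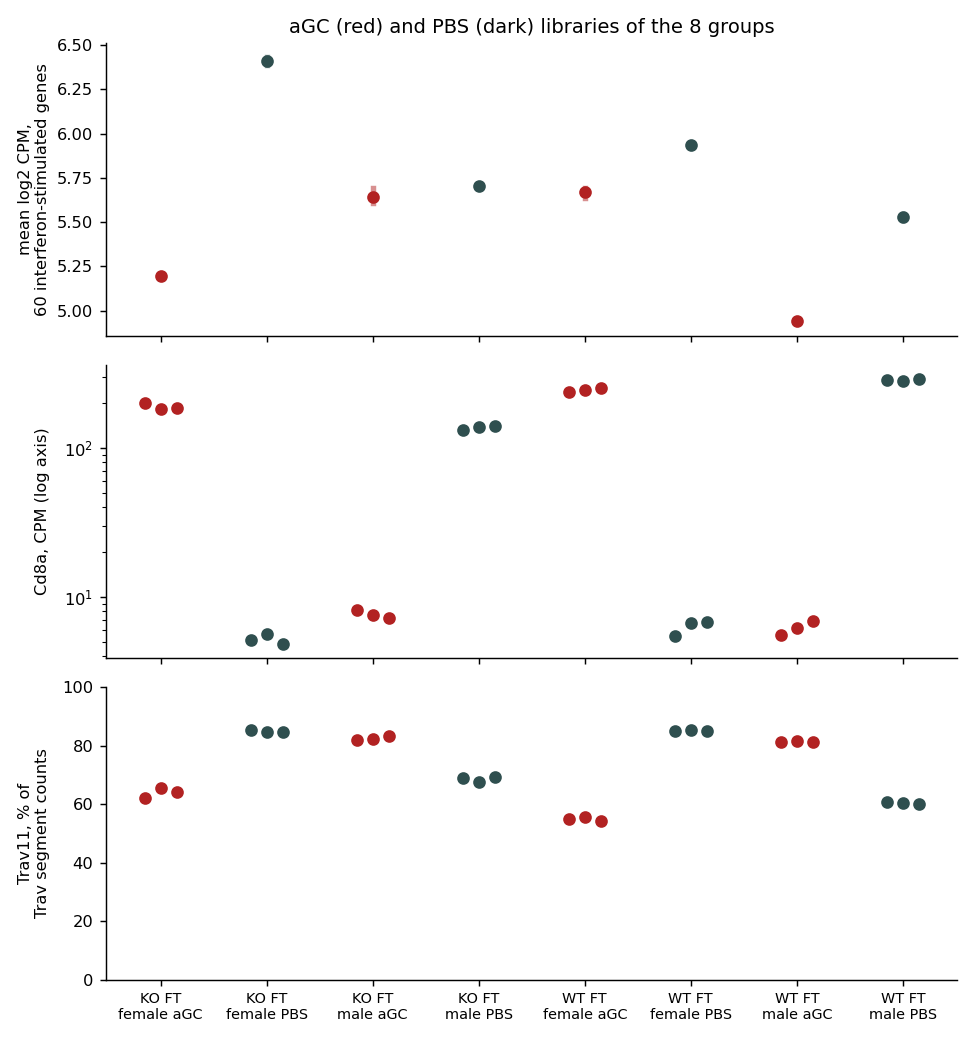
For each of the 8 groups of 3 libraries, the mean level of 60 interferon-stimulated genes in log2 CPM (dot, with a bar over its range), Cd8a in CPM on a log axis and the share of Trav11 among Trav counts are shown, aGC in red and PBS in dark. The interferon-stimulated genes peak in the PBS-treated KO FT females at 6.41, while Cd8a is high where the Trav11 share is low.

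The interferon-stimulated genes were also compared between 2 groups in which Cd8a was high. In aGC-treated KO FT females and PBS-treated KO FT males Cd8a averaged 189 and 136 CPM, and the Trav11 share ran from 62.1 to 65.7% and from 67.6 to 69.3%. Between these groups 43 of the 60 interferon-stimulated genes were lower and 3 higher in the aGC females (median log2 difference -0.49), where 52.8% of all genes passed, 25.4% higher and 27.4% lower. Of 13 CD8 markers 5 were higher and 5 lower (median -0.09), and of 25 naive genes 2 were higher and 17 lower (median -0.35). Sex and treatment cannot be told apart here, and the contrast shares libraries with the female comparison given above.

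iNKT lineage and iNKT1 genes fell more often than they rose. Zbtb16, the lineage factor PLZF, averaged 34.1 CPM with aGC and 58.6 CPM with PBS, a log2 change of -0.78 ± 0.09, and of 29 lineage genes 6 were higher and 17 lower (median -0.38). Of 32 iNKT1 markers 5 were higher and 20 lower (median -0.46). Tbx21, the iNKT1 factor, fell by 0.38 on the log2 scale, and the chemokine receptor genes Cxcr6 and Cxcr3 by 1.24 and 1.25. In KO FT males 12 of these 32 were higher and 12 lower, and Cxcr6 rose by 0.39. Of 18 iNKT2 markers 9 were higher and 6 lower (median 0.13), and Gata3, the iNKT2 factor, had a change of -0.15 ± 0.11 that did not pass.

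The iNKT17 genes fell in nearly all members tested. Of 27 markers 25 were lower and 2 higher, with a median log2 change of -1.14, and the 28 listed summed to 3779 to 3962 CPM with aGC and 7597 to 7700 CPM with PBS. Ccr2, a homing receptor gene, stood at 69.0, 53.1 and 61.4 CPM with aGC and at 196, 191 and 173 CPM with PBS, a log2 change of -1.61 ± 0.10. The groups lay well apart, and Ccr6, another homing receptor gene, fell by 1.98. The list fell in WT FT females too, with 24 of the 27 lower and 2 higher (median -1.49). In KO FT males 14 were lower and 3 higher (median -0.26). Against the WT FT females 12 of the 27 had a higher response, Ccr6 and Ccr2 among them, and 2 a lower one. The shares of all genes in that test were 20.5% higher and 23.8% lower. Il17re, Serpinb1a and Blk fell by 2.62, 2.36 and 1.83 on the log2 scale. Of 20 follicular helper-like and IL-10-producing iNKT markers 11 were higher and 5 lower (median 0.67), among them Cd200, up by 2.19.

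Markers of other cells moved too, and their part in these results was not tested. Gamma delta T cell markers summed to 544 to 610 CPM with aGC and 1475 to 1586 CPM with PBS, with 3 of 10 tested higher and 5 lower. Tcrg-C1 fell by 1.74 on the log2 scale and Trdc rose by 1.68. B cell markers summed to 855 to 885 CPM with aGC and 1271 to 1318 CPM with PBS, with 4 of 30 at 0 in all aGC libraries and 0 of 30 in all PBS libraries, and 3 of 27 tested were higher and 14 lower. Myeloid and dendritic markers summed to 205 to 236 CPM with aGC and 343 to 392 CPM with PBS, with 5 and 6 of 28 at 0 and 3 of 22 higher and 9 lower, and the lysozyme gene Lyz2 averaged 7.23 CPM with aGC and 36.4 CPM with PBS. NK and innate lymphoid markers summed to 474 to 520.5 CPM with aGC and 775 to 789 CPM with PBS, with 3 of 16 higher and 10 lower. Stromal, epithelial and erythroid markers stayed low, at 69.9 to 72.1 CPM with aGC and 63.2 to 64.4 CPM with PBS, with 5 and 9 of 17 at 0.

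**Figure D4:**
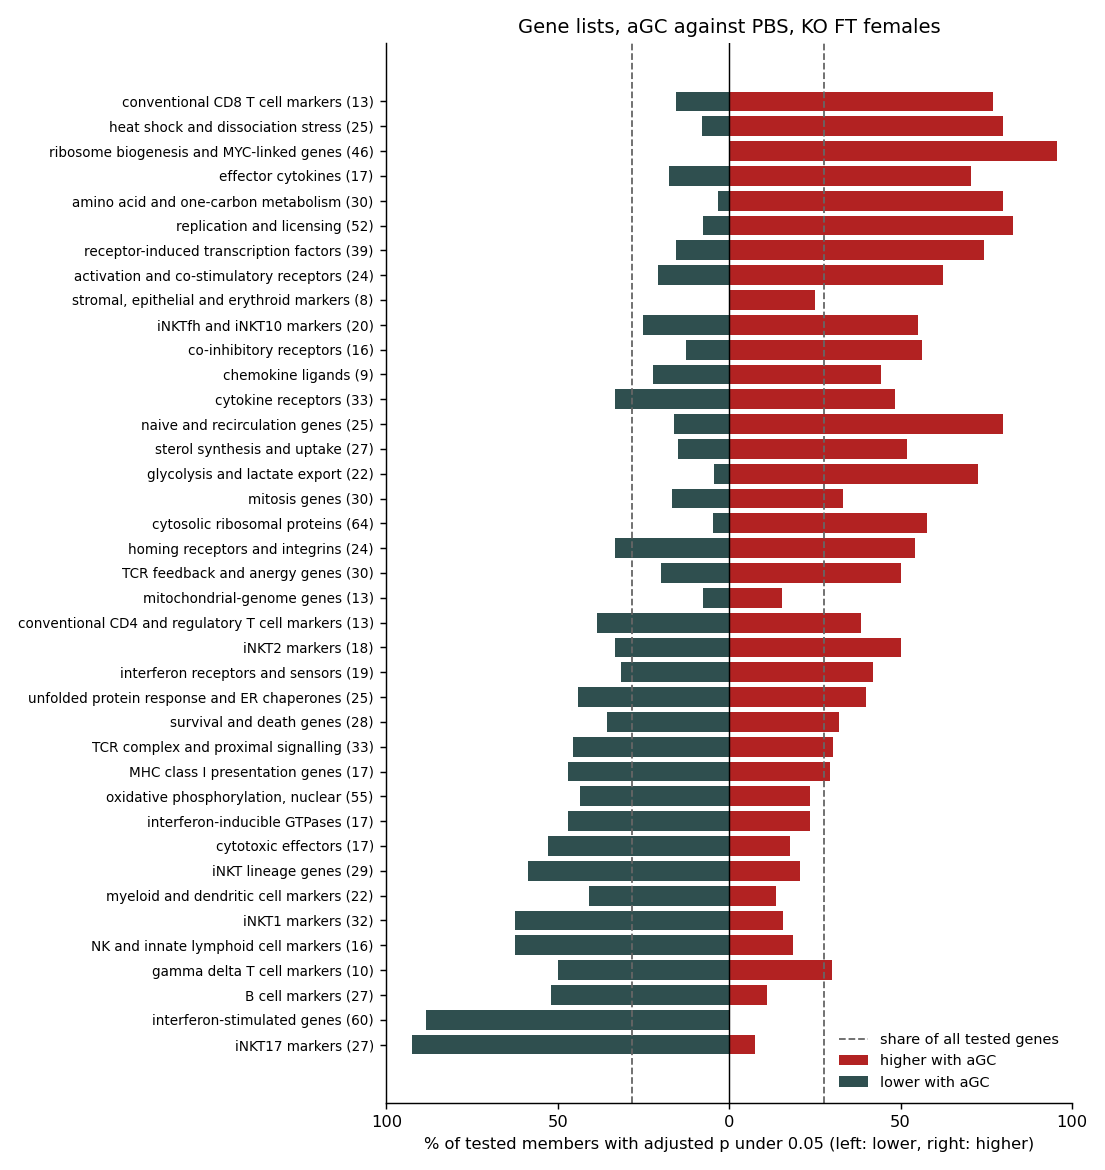
For each gene list (tested members in brackets), bars give the share of members that were higher (right) and lower (left) with aGC in KO FT females, ordered by median log2 change. Dashed lines mark the shares of all tested genes, 27.7% higher and 28.3% lower, and the interferon-stimulated genes and iNKT17 markers reach farthest to the left with 53 of 60 and 25 of 27 lower.

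Growth genes rose. Of 46 ribosome biogenesis genes 44 were higher and 0 lower (median log2 change 1.25), with Ncl, the nucleolin gene, at 1541, 1538 and 1496 CPM with aGC and at 480, 470 and 451 CPM with PBS. Every aGC library was well above every PBS library, a log2 change of 1.71 ± 0.04. Of 52 replication genes 43 were higher and 4 lower (median 0.84), among them the helicase subunit genes Mcm2 and Mcm5 and the methylation factor gene Uhrf1, up by 1.45, 1.92 and 2.27. Of 30 mitosis genes 10 were higher, 5 lower and 15 did not pass (median 0.31), and Mki67, a gene of cycling cells, stood at 1.11, 1.26 and 2.88 CPM with aGC and at 3.47, 3.05 and 2.02 CPM with PBS. The groups overlapped, and its log2 change of -0.65 ± 0.33 did not pass (adjusted p = 0.101, edgeR). It passed without aGC library 3, at -1.25, and without PBS library 3, at -0.86 (adjusted p = 0.00606 and 0.0486, edgeR). In KO FT males Mki67 rose by 1.39. Of the 30 mitosis genes 17 had a lower response than in males and 2 a higher one, against 25.3% and 21.4% of all genes.

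Amino acid and one-carbon genes were higher in 24 of 30 and lower in 1 (median 1.07). Bcat1, a branched-chain transaminase gene, stood at 49.1, 50.9 and 47.2 CPM with aGC and at 0.999, 1.39 and 1.01 CPM with PBS, a log2 change of 5.45 ± 0.26. Shmt1, a folate cycle gene, and Slc7a5, a transporter gene of large amino acids, rose by 2.73 and 2.72. Odc1, of polyamine synthesis, rose by 2.10. Of 22 glycolysis and lactate export genes 16 were higher and 1 lower (median 0.32), with Ldha, Tpi1 and the lactate transporter gene Slc16a1 up by 1.09, 1.30 and 2.10. Of 27 sterol genes 14 were higher and 4 lower (median 0.35).

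Respiration genes had a lower response in these females than in KO FT males and in WT FT females. Of 55 nuclear genes of oxidative phosphorylation 13 were higher, 24 lower and 18 did not pass, with a median log2 change of -0.18. In KO FT males 47 of the 55 were higher and 0 lower (median 0.43), and in WT FT females 46 and 0 (median 0.51). The response was lower in KO FT females for 47 genes against the males and for 47 against the WT FT females, with 0 higher in either test. The shares of all genes with a lower response in these tests were 25.3% and 23.8%. Ndufa2, a complex I subunit gene, stood at 71.2, 69.1 and 66.2 CPM with aGC and at 100.1, 108.5 and 133.5 CPM with PBS, a log2 change of -0.73 ± 0.12, against 0.29 in WT FT females. Atp5b, the ATP synthase beta chain, rose by 0.75. Among 8488 genes of at least 10 CPM split into 4 equal sets by exon length, the set of the shortest had a median change of -0.19 and the longer sets of -0.0007, 0.12 and 0.09. The shortest set had medians of 0.10 in KO FT males and 0.20 in WT FT females, and the part of gene length in the respiration counts was not tested.

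Of 64 ribosomal protein genes 37 were higher and 3 lower (median 0.30). A lower response than in WT FT females was found in 59 and a higher one in 0, against 23.8% and 20.5% of all genes. Of 13 genes of the mitochondrial genome 2 were higher and 1 lower, while in WT FT females 0 were higher and 12 lower. Of 25 heat shock and dissociation stress genes 20 were higher and 2 lower (median 1.30), with the chaperone genes Hspa8 and Hsp90aa1 up by 1.65 and 2.06. Of 25 unfolded protein response genes 10 were higher and 11 lower (median 0.07), as Hyou1, a chaperone gene of the endoplasmic reticulum, rose by 2.46 and Ddit3, the stress factor CHOP, fell by 1.05 on the log2 scale. Survival and death genes were split at 9 higher and 10 lower of 28 (median -0.04), and the pro-apoptotic gene Bcl2l11 and the stress gene Gadd45b rose by 2.26 and 3.26.

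The remaining lists were also split. Of 33 genes of the receptor complex and its proximal signals 10 were higher and 15 lower (median -0.05). Of 17 cytotoxic effector genes 3 were higher and 9 lower (median -0.27). Of 24 homing receptor and integrin genes 13 were higher and 8 lower (median 0.28), and of 33 cytokine receptor genes 16 were higher and 11 lower (median 0.43).

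Among protein-coding genes of at least 10 CPM, the falls outside the lists included Znrf2, a ubiquitin ligase gene, at 10.2, 10.8 and 9.82 CPM with aGC and at 133, 150.0 and 120.4 CPM with PBS, a log2 change of -3.71 ± 0.10. Its PBS level in these females lay far above the aGC level, whereas KO FT males had 23.9 CPM with aGC and 12.1 CPM with PBS. Qk, an RNA-binding protein gene, Ranbp9 and Egln1, the oxygen-sensing prolyl hydroxylase gene, fell by 3.18, 2.80 and 2.71 on the log2 scale, and Qk and Egln1 rose in KO FT males by 1.14 and 0.69. Irf2bp2, a repressor partner of IRF2, averaged 37.9 CPM with aGC and 210 CPM with PBS in these females, and 44.7 and 41.7 CPM in KO FT males given aGC and PBS. Among the rises, Crtam, an adhesion receptor gene of activated T cells, Lad1, Rgs16 and Mfsd2a rose by 5.0, 4.78, 3.71 and 3.94.

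Of 5602 genes that passed in both sexes of the KO FT mice, 1459 (26.04%) had opposite directions, and of 6121 that passed in both KO FT and WT FT females, 1141 (18.64%) did. Within each pair the responses share no library, but both pairs hold the same KO FT female libraries.

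**Figure D5:**
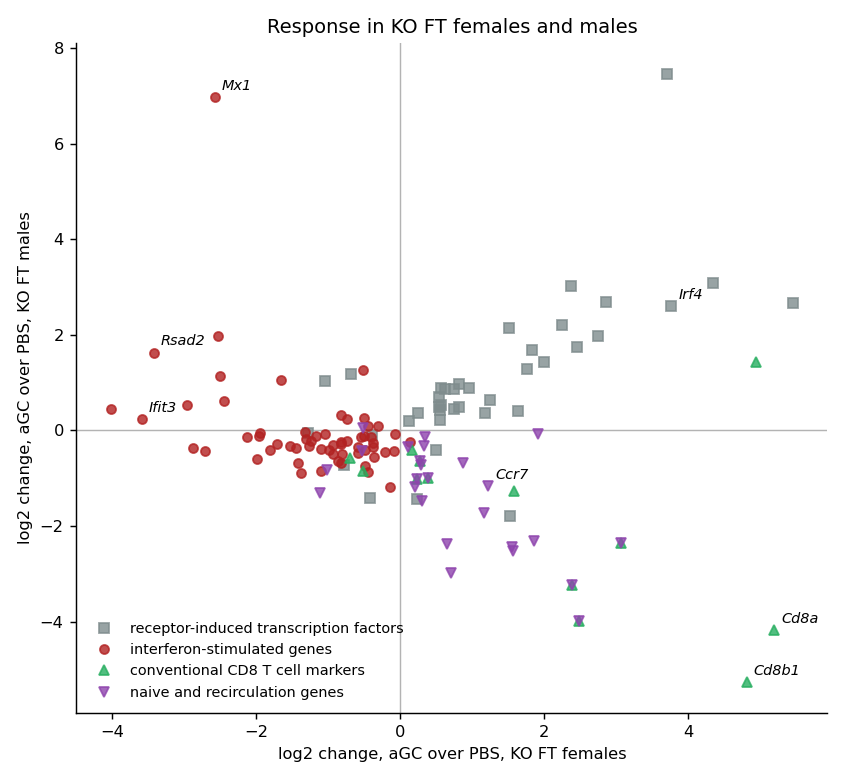
Log2 change of aGC over PBS in KO FT females (x axis) and KO FT males (y axis) for receptor-induced transcription factors (grey squares), interferon-stimulated genes (red circles), CD8 T cell markers (green triangles) and naive genes (purple triangles). CD8 and naive genes lie mostly to the lower right, with Cd8a at 5.19 and -4.17, and most interferon-stimulated genes lie to the left, with Mx1 at -2.58 and 6.97.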

How the data were processed

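RNA of sorted iNKT cells was extracted with a purification kit for single cells, and Nextera XT tagmentation gave libraries without strand information, per the labels' protocols. The deposited values are estimated counts per gene in whole numbers. The authors used kallisto with GRCm38 (mm10), per the submitters' processing notes. The sources used here do not give its version, the annotation or how transcripts were summed to genes. Reads of near-identical genes are shared by estimation, and a gene and its antisense partner cannot be told apart.

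Samples were grouped by the donor, sex and treatment in their labels, which made 8 groups of 3. Of 55335 genes 55154 were named by GENCODE M21, and 3 listed symbols on more than 1 identifier were taken at the gene with the highest level. filterByExpr (minimum count 10, minimum total 15) kept 15953 genes. edgeR's quasi-likelihood fit used TMM scaling, 8 group means and all 24 libraries, with 16 residual degrees of freedom, and all tests were two-sided. Interactions were contrasts of the same fit. SE is the log2 change over the square root of its F statistic. The fit was tested on simulated data. Depth per library is given in the report, and floors of 3 counts cover counting error only.

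The members, the 39 gene lists (1091 entries, 1032 tested) and the rules were chosen with earlier results of these data known. Text genes are a panel of 34 genes, the 15 largest rises and falls of protein-coding genes of at least 10 CPM, the 10 largest interaction values in each direction, and per list up to 8 members that passed and up to 4 that did not. Some genes taken by these rules are not reported here. Alternatives covered scaling, tool, filter, libraries fitted, fold threshold, replicate number and leaving out each library of the groups compared. Versions were Python 3.11.15 with matplotlib 3.10.9, numpy 2.4.6 and pandas 2.3.3, and R 4.3.3 with DESeq2 1.42.0, limma 3.58.1 and edgeR 4.0.16.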

Additional observations from a re-analysis of the deposited data

Results flagged for a closer look

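The genes below were set apart because their response to aGC in KO FT females differed from that in another group by the interaction test (edgeR, adjusted p under 0.05), with changes that passed in opposite directions. Values are log2 differences, KO FT females minus the other group. The counts are over 135 tested genes picked for the text, which are not all that the naming rule takes. Of these, 103 had a response that differed from the KO FT males, 32 of them in opposite directions. Against the WT FT females 81 differed, 8 of them in opposite directions. The naming rule takes in the largest interaction values and the largest changes of each list, which raises these counts. Over all tested genes the response differed from the KO FT males in 46.7% and from the WT FT females in 44.2%. Of the 135, the 71 and 73 that differed without opposite directions are given as counts only.

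Against KO FT males, 19 of the 135 genes were lower in females and higher in males. Among interferon-stimulated genes and Ifitm3 the differences were -9.54 for Mx1, -5.05 for Rsad2, -4.48 for Ifit3b, -3.83 for Ifit3, -3.65 for Cmpk2, -3.51 for Ifitm3, -3.49 for Ifit1, -3.07 for Usp18 and -2.71 for Isg15. Mx1 had 5 counts in all in the PBS-treated males. Outside that set they were -7.96 for the lysozyme gene Lyz2, -6.21 for the mitotic gene Cenpf, -4.70 for Znrf2, -4.31 for Qk, -4.01 for the chemokine gene Cxcl16 and -3.40 for Egln1. Ikzf2, Cxcr6, Fasl and Tbx21 had -2.08, -1.63, -1.37 and -0.72. Cenpf in females had a log2 change of -1.84, and without PBS library 1 it was -1.36 and did not pass (edgeR, adjusted p = 0.0583).

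The other 13 were higher in females and lower in males. The differences were 10.1 for Cd8b1, 9.37 for Cd8a, 7.27 for Slc16a5, 6.46 for Dapl1, 5.41 for Actn1, 4.08 for Klf2, 3.02 for S1pr1, 2.86 for Itgae and 2.38 for Ccr7. They were 4.03 for Trdc, 3.11 for Il6st and 1.36 for Cd4. Foxp3 had a fitted difference of 11.25, which depends on the prior count because all PBS-treated KO FT females had 0 counts.

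Against WT FT females, 6 of the 135 genes were lower in KO FT females and higher in WT FT females. The differences were -3.81 for Ifit3, -3.27 for Oasl2, -2.87 for Usp18, -2.35 for Isg15, -1.02 for Ndufa2 and -0.81 for Psmb9. The other 2, Jak2 and Cgas, were higher in KO FT females and lower in WT FT females, at 1.37 and 1.65.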

How the results depend on the processing

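Against a 1.5-fold change (glmTreat) in place of no fold threshold, 3550 genes passed in KO FT females (1834 higher, 1716 lower) in place of 8941. The difference from KO FT males then held for 2895 genes (1449 higher, 1446 lower) in place of 7451, and that from WT FT females for 2297 (1271 higher, 1026 lower) in place of 7058. The contrast of aGC females with PBS males gave 3075 (1618 higher, 1457 lower) in place of 8417. Each count stayed within 1.5 times its value under RLE size factors, DESeq2, limma-voom, both filters, fits on fewer libraries and the leaving out of each library of the groups compared. For KO FT males, WT FT females and PBS-treated males that leaving out was added after the data were seen. Without single libraries 8217 to 8426 genes passed in KO FT females, and 50 to 54 interferon-stimulated genes were lower. Against a 1.5-fold change 37 of those were.

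With the replicate block 8519 genes passed in KO FT females and 54 interferon-stimulated genes were lower. Same-numbered aGC and PBS libraries deviated together by r = 0.0112, 0.0129 and 0.025, and differently numbered ones by r = -0.0208 to 0.00779. Values this near 0, from a spread that may be technical, cannot decide whether the numbers pair the libraries.

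Over 135 genes and 15 settings, 2001 of 2023 values kept their side of the threshold, 17 no longer passed and 5 passed newly. Among values that passed in either fit 0 turned direction, and a change of sign where neither passed was not counted. Of the 17, 16 came from the 1.5-fold threshold, among them Gbp2, Gbp3, Tgtp2, Tap1, Il4, Xcl1, Ccl5, Tbx21, S1pr1 and Ndufa2. The newly passing values were those of Mki67, Gata3 (without a filter on low counts), Themis (without PBS library 1) and Trim25. No setting moved the median of all genes by more than 0.0302.

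The libraries of a group had a common biological coefficient of variation of 0.108, and spread between animals or litters was not measured. In the shallowest of the 6 libraries a count of 0 allows up to 0.302 CPM.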
